A study of Mus musculus with 6 samples.

Results

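The genes described here encode the proteins of the cytosolic ribosome, as they were read in mouse embryoid body cells sorted by the redox state of their nucleus. They were chosen by symbol alone, as the rows whose name is Rpl, Rps or Rplp followed by a number and, at most, one of the endings a, x, l or l1. This gave 84 of the 31265 genes in the table, 53 of the large subunit and 31 of the small subunit, spread over 19 chromosomes. In the GENCODE vM21 annotation, 81 of them are protein coding and 3 (Rpl6l, Rpl32l and Rps4l) are processed pseudogenes, copies of a spliced mRNA that returned to the genome. The rule leaves out genes that encode ribosomal proteins under other names, such as Rpsa, Fau, Rpl36al and Rack1, given as a list of 5 below. Rps3a1 was not analysed here, and Rps27rt and Rpl37rt enter only among the copies described below.

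The oxidized group was the 10% of live cells with the most oxidized nuclear sensor, and the reduced group the 10% with the most reduced one. All cells were wild-type E14Tg2a, a mouse embryonic stem cell line, carrying the redox sensor Grx1-roGFP2 in the nucleus. They had been grown with LIF and 2i, then taken to day 5 as embryoid bodies in hanging drops without either, and cells that took up propidium iodide were gated out. Both groups were sorted from the same 3 populations, A, B and C, giving 3 oxidized and 3 reduced poly(A) RNA libraries. The labels do not say whether a population is a clone, a culture or a day, nor what drives the sensor, and p-values therefore cover only the spread over these libraries. Values are always given for populations A, B and C in that order.

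A ribosome has a small subunit, which decodes the mRNA, and a large subunit, which joins amino acids, and each holds ribosomal RNA and a fixed set of proteins. Most of these proteins are needed in equal numbers, their mRNAs are among the most abundant of a dividing cell, and most begin with a run of pyrimidines through which mTORC1 controls their translation. Their genes have also left very many processed pseudogenes in mammalian genomes, so that reads from one mRNA can match several places.

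The libraries stood apart in one respect that touches the results. The ribosomal RNA locus CT010467 was at 1410.4, 1736 and 43825 FPKM (fragments per kilobase of transcript, relative to all fragments) in the oxidized libraries, against 34116, 36593 and 35888 FPKM in the reduced ones, so oxidized A and B were far below the other 4 libraries. The 13 mitochondrially encoded mRNAs summed to 7348, 5159.7 and 2994 FPKM in the oxidized libraries, against 2324, 3917 and 3635 FPKM in the reduced ones, and oxidized A and B were again outside the range of the rest. Marker genes were called at a limma adjusted p under 0.05, as 0.796% of all 12191 genes tested were. In the pluripotent marker list (Pou5f1, Sox2, Nanog and 5 others) 1 of 8 genes was called, Tdgf1, which was lower in oxidized cells. The pluripotent list summed to 1922, 1745 and 780.3 FPKM in oxidized libraries, against 2417, 2438 and 2174 FPKM in reduced ones. Markers of other cell types were read in the same way, and sums over unlike genes do not rank the cell types against each other. The endoderm list summed to 28.5 to 34.1 FPKM in oxidized and 10.8 to 15.6 FPKM in reduced libraries (0 of 7 tested genes called), the fibroblast list to 54.9 to 69.1 against 18.7 to 30.8 FPKM (2 of 5 called, both higher), and the neuroectoderm list to 9.91 to 23.3 against 3.73 to 6.50 FPKM (0 of 2 called). The mesoderm list summed to 150.3 to 213 FPKM in oxidized and 101 to 134 FPKM in reduced libraries, but its median difference was -0.20, and the 1 of 7 genes called, T (brachyury), was lower in oxidized cells. The erythroid list summed to 79.7, 64.4 and 613 FPKM in oxidized libraries, against 29.6, 67.8 and 627 FPKM in reduced libraries (0 of 5 called), high in both libraries of population C. No marker was at 0 in every library. The part of these differences in the ribosomal protein values was not tested, and in bulk samples fewer cells of a type and less RNA per cell cannot be told apart.

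Ribosomal protein transcripts were at similar summed levels in both groups. The 84 genes summed to 25261, 20072 and 20778 FPKM in the oxidized libraries, against 20449, 19297 and 23899 FPKM in the reduced libraries. Oxidized A had the highest sum and reduced B the lowest, and the groups overlapped. The mean was 22037 ± 2814 FPKM in oxidized cells and 21215 ± 2395 FPKM in reduced cells (SD, n = 3 each), a ratio of 1.04, which was 0.968 after median-ratio scaling. As a share of all FPKM in the library, the genes held 7.25%, 6.16% and 5.81% in oxidized cells, against 5.79%, 5.60% and 6.45% in reduced cells. That total includes the ribosomal RNA locus, which was far lower in oxidized A and B. The shares therefore do not have the same base in every library, and their order between libraries cannot be read from them. The summed FPKM are relative to all fragments, those of this locus included, and carry the same limit.

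Neither subunit stood out. Large subunit genes summed to 13288 ± 1819 in oxidized and 12576 ± 1392 FPKM in reduced cells, a ratio of 1.06. For the small subunit the sums were 8749 ± 1011 and 8639 ± 1004 FPKM, a ratio of 1.01. The ratio of large to small was 1.56, 1.54 and 1.46 in oxidized A, B and C, against 1.45, 1.47 and 1.45 in the reduced libraries. Oxidized A and B were above all reduced libraries in this ratio, and oxidized C lay within their range.

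**Figure D1:**
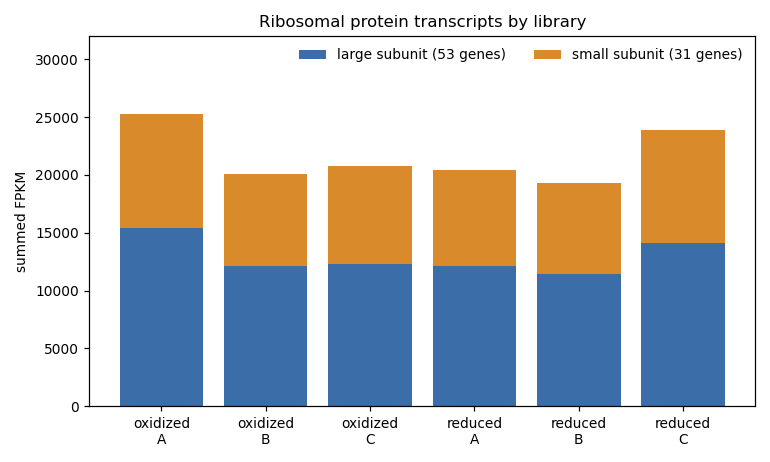
Summed FPKM of the 84 ribosomal protein genes in each of the 6 libraries, with large subunit genes in blue and small subunit genes in orange. The oxidized libraries (20072 to 25261) and the reduced libraries (19297 to 23899) overlap.

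Listed levels differed widely among the members. Of the 84 genes, 79 had a mean of 10 FPKM or more over the 6 libraries, 57 had 100 FPKM or more and 12 had 500 FPKM or more. Rpl8, a core protein next to the site where peptide bonds form, was the highest at 1156 FPKM, and Rplp0, the base of the stalk, was among the 5 highest at 754 FPKM. The lowest were Rpl3l at 0.525, Rpl39l at 1.79, Rpl32l at 2.44, Rpl29 at 2.95 and Rpl10l at 4.03 FPKM. Of these, Rpl3l, Rpl39l and Rpl10l are paralogues, Rpl32l is a processed pseudogene and Rpl29 has a far more abundant copy, described below. They do not show that equally needed proteins have unlike mRNA levels. How much of the spread comes from reads listed under copies was not tested.

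Most of these genes share their sequence with others in the genome. A stretch of 31 bases was counted as shared when the main transcript of another gene also holds it, and 76 of the 83 tested genes shared at least 20% of their stretches, where 23.0% of all tested genes did. Counting as a copy any gene that holds at least 20% of a member's stretches, 70 of the 84 genes had at least 1 copy, 10 had at least 10, and Rpl7a had 38. The copies amounted to 386 genes of the table besides the members themselves, 362 of them annotated as pseudogenes. Rps27 shared 98.7% of its stretches, Rpl5 94.8% and Rpl36 94.1%, the highest of all.

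Values listed for a member and its copies are therefore uncertain between them. Rpl29 is an extreme case. The gene itself was listed at 1.79, 2.07 and 3.33 FPKM in oxidized libraries, against 3.99, 3.04 and 3.46 FPKM in reduced libraries. Its processed pseudogene Gm13841, which holds 51.2% of its stretches, was listed at 540.0, 465 and 638 FPKM in oxidized libraries, against 606, 484 and 638 FPKM in reduced libraries. Copies could also share the pattern of the member. The 36 copies of Rps2 that the table holds summed to 849.7, 692 and 433 FPKM in oxidized libraries, against 466, 438 and 480.3 FPKM in reduced libraries. Those of Rpl3 summed to 598, 509.7 and 833 FPKM in oxidized, against 1069, 1109 and 971 FPKM in reduced libraries. Oxidized A and B were above the other 4 libraries in the first set and below them in the second, as they were in Rps2 and Rpl3 themselves.

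The promoters have letters in common. RefSeq windows of 300 bases, from 250 before to 50 after the annotated start on GRCm38.p6, were matched by symbol for 62 of the 84 genes. The letters CCGGAAG, which ETS family factors such as GABP are known to bind, were found on either strand in 23 of these 62 windows (37.1%), where 9.12% of all 27025 windows held them. A pyrimidine string on the sense strand, which was any of CTTTC and the same with a last T (CTTTT), or CTTCC, or lastly CTCTT, lay within 30 bases of the start in 39 of 62 (62.9%), where 28.3% of all windows held one. CTTCC can overlap the reverse form CTTCCGG of the first motif. These are matches of letters, not measured binding. The promoters of 3 genes higher in oxidized A and B (Rps21, Rps27 and Rps15) and of 2 genes lower there (Rpl6 and Rps6) are shown from 100 bases before to 30 bases after the start, with matches of either motif in capitals, because both kinds of match occur in both sets of genes.
Rps21 (chr2:180257279-180257408, plus strand): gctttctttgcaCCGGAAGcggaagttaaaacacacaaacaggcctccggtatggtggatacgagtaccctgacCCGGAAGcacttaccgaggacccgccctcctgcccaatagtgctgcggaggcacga
Rps27 (chr3:90213619-90213748, minus strand): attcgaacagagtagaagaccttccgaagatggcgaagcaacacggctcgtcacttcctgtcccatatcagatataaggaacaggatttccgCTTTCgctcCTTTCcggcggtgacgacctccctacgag
Rps15 (chr10:80292331-80292460, plus strand): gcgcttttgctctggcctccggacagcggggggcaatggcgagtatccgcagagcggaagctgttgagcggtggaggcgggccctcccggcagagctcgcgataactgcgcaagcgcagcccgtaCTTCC
Rpl6 (chr5:121204401-121204530, plus strand): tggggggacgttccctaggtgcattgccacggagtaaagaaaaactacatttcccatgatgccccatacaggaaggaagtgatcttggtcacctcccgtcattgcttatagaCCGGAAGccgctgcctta
Rps6 (chr4:86857338-86857467, minus strand): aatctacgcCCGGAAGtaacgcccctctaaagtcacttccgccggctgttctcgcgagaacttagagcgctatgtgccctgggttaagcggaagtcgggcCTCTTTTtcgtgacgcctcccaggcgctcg
Rps21 and Rpl6 hold the CCGGAAG letters, Rps27 and Rps15 a pyrimidine string, and Rps6 both. The windows of Rplp0 and Rpl10l, also lower in oxidized cells and not shown, hold neither. Of the matched genes in which oxidized A and B were above the other 4 libraries, 5 of 16 held CCGGAAG and 11 of 16 a pyrimidine string. Of those in which they were below, 6 of 13 and 7 of 13 did.

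No ribosomal protein gene passed the test between oxidized and reduced cells. Of the 83 genes whose mean reached 1 FPKM, 0 were called by limma at an adjusted p under 0.05, where 0.796% of all 12191 genes tested were. The lowest adjusted p was 0.146. Without adjustment, 19 of 83 had a p under 0.05 (22.9%), 10 higher and 9 lower in oxidized cells, and 19.4% of all genes tested did. Log2 differences were taken on log2(FPKM + 1), as oxidized minus reduced. Their median was 0.04 over the 83 genes and 0.08 over all genes. It was 0.01 for the 52 large subunit genes and 0.04 for the 31 small subunit genes, and 44 of 83 genes had a positive difference. The genes lay on both sides of 0 in both subunits: 26 of 52 were positive in the large and 18 of 31 in the small subunit.

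The single differences were spread more widely than the median shows. From the lower to the upper quartile they ran from -0.27 to 0.33, and the extremes were Rpl17 at -0.80 and Rpl36 at 1.13. A difference above 0.5 was found in 16 genes and one below -0.5 in 12, together 33.7% of the 83 genes, where 13.0% and 5.79% of all genes had such a difference. In 0 genes were all 3 oxidized libraries above all 3 reduced libraries, where 16.2% of all genes were. In 7 of the 83 genes, 8.43% of them, all 3 oxidized libraries were below, close to the 8.81% of all genes.

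**Figure D2:**
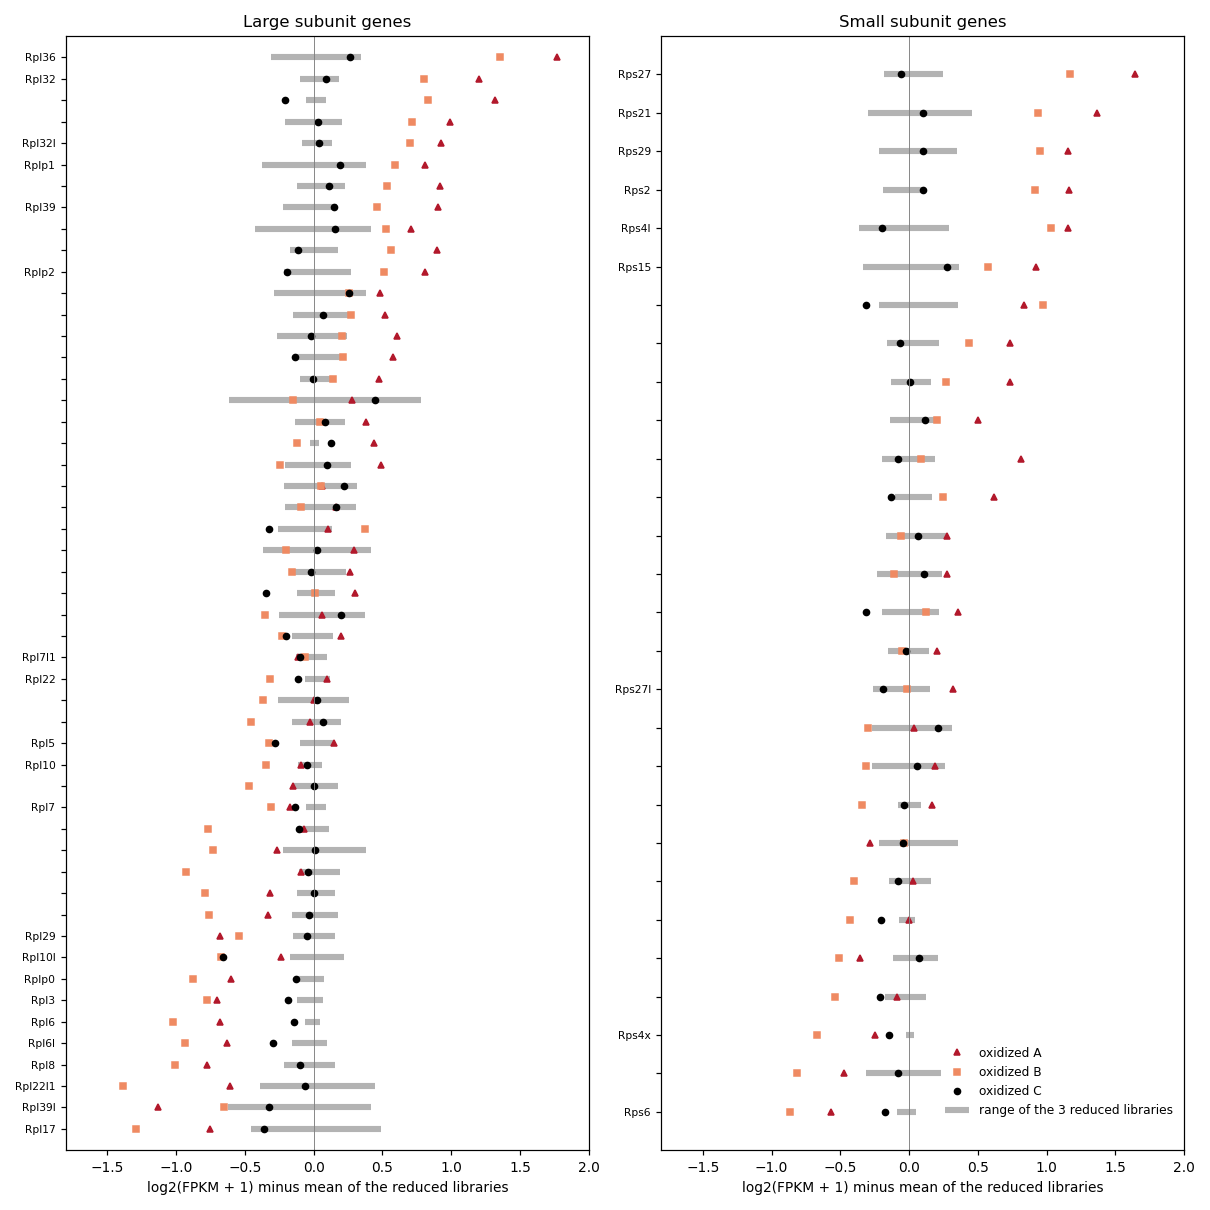
The log2(FPKM + 1) of tested ribosomal protein genes, 1 row per gene, in oxidized A (triangles), B (squares) and C (black circles), as the difference from the mean of the reduced libraries, whose range is the grey bar; large subunit genes are on the left and small subunit genes on the right, sorted by difference, with the genes chosen for naming labelled. The differences run from -0.80 in Rpl17 to 1.13 in Rpl36, and over all 83 tested genes the median distance from 0 is 0.43 for the mean of A and B and 0.11 for C.

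Among the genes higher in oxidized cells, Rpl36 had the smallest p. Rpl36 is a large subunit protein with no bacterial counterpart, on chromosome 17 (56613416 to 56614243, GRCm38, plus strand, 4 exons). It had 1178, 886 and 416 FPKM in oxidized libraries, against 339, 278 and 438 FPKM in reduced libraries. Oxidized A and B were above all other libraries and oxidized C was just below reduced C. The means were 827 ± 385 in oxidized and 351 ± 80.8 FPKM in reduced cells (SD, n = 3 each), a log2 difference of 1.13 (SE 0.36) with a limma adjusted p of 0.155. In the authors' deposited table its fold was 2.35 with a q-value of 0.0194, and it was the only one of the 84 genes there with a q under 0.05.

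Small subunit genes made up most of the next in order. Rps27, a zinc-binding protein, had 241, 174 and 73.7 FPKM in oxidized libraries, against 67.5, 73.4 and 90.9 FPKM in reduced libraries (log2 difference 0.92, SE 0.38, limma adjusted p = 0.235). Rps21, whose promoter is shown above, had 89.3, 66.1 and 36.7 FPKM in oxidized libraries, against 27.4, 30.5 and 47.0 FPKM in reduced libraries (log2 difference 0.80, SE 0.33, limma adjusted p = 0.228). In both genes oxidized A and B were at the top, and oxidized C fell inside the range of the reduced libraries. Rps29, a zinc-binding protein of the head of the small subunit, had 379, 328 and 181 FPKM in oxidized libraries, against 155, 145 and 216 FPKM in reduced ones. Rps2 had 592, 499 and 283 FPKM in oxidized libraries, against 277, 231 and 286 FPKM in reduced ones. The log2 differences of these genes were 0.73 each, with limma adjusted p-values of 0.215 for Rps29 and 0.199 for Rps2. Rps15, also of the head, had 695, 544 and 443 FPKM in oxidized libraries, against 359.7, 290.1 and 469.9 FPKM in reduced ones, a log2 difference of 0.59 (limma adjusted p = 0.230).

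Of the 39 genes with a negative difference, 26 were of the large and 13 of the small subunit, where 52 of the 83 tested genes are of the large subunit. Rpl3, on chromosome 15 (80077791 to 80091868, GRCm38, minus strand, 10 exons), encodes a core protein that reaches towards the peptide-joining site. It had 345, 329.5 and 496 FPKM in oxidized libraries, against 591, 519 and 584 FPKM in reduced libraries. All 3 oxidized libraries were below all 3 reduced ones. The log2 difference was -0.55 (SE 0.20) with a limma adjusted p of 0.190. Rpl8 had 804, 684 and 1288 FPKM in oxidized libraries, against 1439, 1191 and 1533 FPKM in reduced libraries, a log2 difference of -0.63 (limma adjusted p = 0.233). Here oxidized C lay inside the range of the reduced libraries. Rpl17, which lines the tunnel through which the new chain leaves, had 86.1, 59.0 and 113 FPKM in oxidized libraries, against 106, 205 and 142 FPKM in reduced libraries, a log2 difference of -0.80 (limma adjusted p = 0.196).

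Rps6, the small subunit protein that S6 kinase phosphorylates downstream of mTORC1, was the small subunit gene with the smallest p among those lower in oxidized cells. It had 598, 486 and 785 FPKM in oxidized libraries, against 832, 909.9 and 916 FPKM in reduced libraries. The groups did not overlap. The means were 623 ± 151 in oxidized and 886 ± 47.0 FPKM in reduced cells, a log2 difference of -0.53 (SE 0.21) with a limma adjusted p of 0.217. The other genes with all oxidized libraries lowest were Rpl10l, Rpl6, Rpl6l, Rpl7 and Rps4x, with differences from -0.62 to -0.21.

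**Figure D3:**
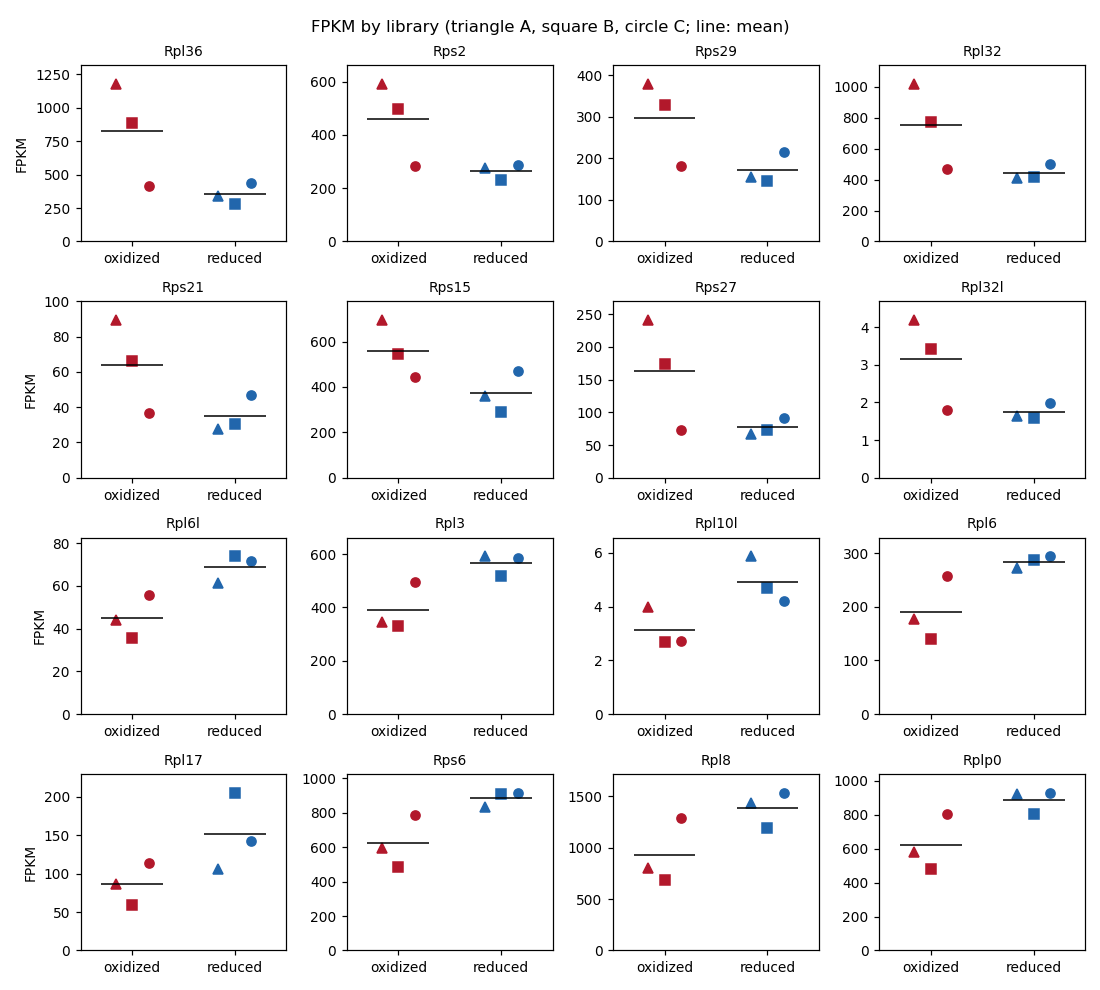
FPKM in each library for the 8 ribosomal protein genes with the smallest p among those higher in oxidized cells (first 8 panels) and the 8 among those lower (last 8 panels), with oxidized libraries in red and reduced in blue; triangles are population A, squares B and circles C, and the line is the group mean. In Rpl36 oxidized A (1178) and B (886) lie above every other library and oxidized C (416) among the reduced ones; in Rps6 all 3 oxidized libraries (486 to 785) lie below the reduced ones (832 to 916).

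The stalk of the large subunit, which recruits the elongation factors, held genes on both sides. Rplp0, the base of the stalk, had 583, 481 and 806 FPKM in oxidized libraries, against 925, 802 and 929 FPKM in reduced libraries (log2 difference -0.54, limma adjusted p = 0.235). Rplp1, which with Rplp2 forms the arms that Rplp0 carries, had 891, 764 and 579 FPKM in oxidized libraries, against 505, 392 and 662 FPKM in reduced libraries (log2 difference 0.53, limma adjusted p = 0.282). Rplp2 had 169.6, 138 and 84.1 FPKM in oxidized libraries, against 82.6, 92.5 and 117 FPKM in reduced libraries (log2 difference 0.38, limma adjusted p = 0.454). Oxidized A and B were below the other 4 libraries in Rplp0 and above them in Rplp1 and Rplp2.

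Genes whose proteins have a counterpart in the bacterial ribosome were compared with those that do not. Of the 32 with one, 15 had a positive difference and the median was -0.02, and of the 43 without one, 26 did and the median was 0.05. In the large subunit the medians were -0.18 over 18 genes with a counterpart (6 positive) and 0.11 over 28 without (19 positive). In the small subunit the order was turned round, with 0.09 over 14 genes with a counterpart (9 positive) and -0.02 over 15 without (7 positive). The quartiles of all these sets overlapped, and 0 genes of any set were called.

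Paralogues are genes related in sequence to another member, and some of them can stand in for it, often in one tissue. Rpl3l, the striated muscle paralogue of Rpl3, was at 0.0384, 0.237 and 0.643 FPKM in oxidized libraries, against 0.457, 0.951 and 0.824 FPKM in reduced ones, too low to be tested. Rpl10l, a testis paralogue of the X-linked Rpl10, had 3.98, 2.70 and 2.73 FPKM in oxidized libraries, against 5.87, 4.69 and 4.22 FPKM in reduced libraries (log2 difference -0.52, limma adjusted p = 0.191). All oxidized libraries were below all reduced ones in this gene, and oxidized B and C were nearly equal. Its parent Rpl10 had means of 142 ± 15.3 in oxidized and 159 ± 10.5 FPKM in reduced cells, a log2 difference of -0.16.

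Rpl39l, a testis-enriched paralogue of Rpl39, had 0.519, 1.11 and 1.66 FPKM in oxidized libraries, against 3.44, 2.83 and 1.15 FPKM in reduced libraries (log2 difference -0.70, limma adjusted p = 0.256). Its X-linked parent Rpl39 had 131, 95.7 and 76.6 FPKM in oxidized libraries, against 59.1, 71.7 and 78.1 FPKM in reduced libraries (log2 difference 0.50, limma adjusted p = 0.251). The pair lay on opposite sides, and both overlapped between groups. Rpl22l1 had 36.1, 20.6 and 52.98 FPKM in oxidized libraries, against 42.1, 76.1 and 53.1 FPKM in reduced libraries (log2 difference -0.69, limma adjusted p = 0.302). Rpl22, its parent, stayed between 39.7 and 54.0 FPKM in all 6 libraries, with a difference of -0.11. Rpl7l1 was between 71.6 and 83.7 FPKM in all 6 libraries, with a difference of -0.09, and Rpl7 had 240.3, 218 and 246 FPKM in oxidized libraries, against 259.7, 288 and 265 FPKM in reduced ones, with a difference of -0.21. Rps27l, a target of p53, had 389, 307 and 273 FPKM in oxidized libraries, against 259, 338 and 345 FPKM in reduced libraries. Its difference was 0.04, and -0.07 after median-ratio scaling, beside 0.92 in its parent Rps27.

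The 3 members annotated as processed pseudogenes lay on different sides. Rpl6l had the lowest p of all members. It is a single exon on chromosome 10 (111125851 to 111126721, GRCm38, plus strand) and had 44.2, 35.5 and 55.7 FPKM in oxidized libraries, against 61.5, 73.7 and 71.6 FPKM in reduced libraries (log2 difference -0.62, SE 0.19, limma adjusted p = 0.146). Rpl6 had 177, 139 and 257 FPKM in oxidized libraries, against 272, 287 and 294 FPKM in reduced libraries, with the same difference of -0.62. All oxidized libraries were below all reduced ones in both. Rpl6l shared 84.4% of its stretches and Rpl6 66.9%, so reads of the pair could be exchanged. Rpl32l had 4.19, 3.43 and 1.81 FPKM in oxidized libraries, against 1.64, 1.58 and 1.99 FPKM in reduced libraries (log2 difference 0.56, limma adjusted p = 0.248), and Rpl32 had 1019, 774 and 471 FPKM against 412, 418 and 503 FPKM (log2 difference 0.70, limma adjusted p = 0.219). In both, oxidized A and B were above the other 4 libraries. Rpl32 holds 35.8% of the stretches of Rpl32l, so reads of this pair could be exchanged too. Rps4l had 751, 686 and 293 FPKM in oxidized libraries, against 354, 261 and 412 FPKM in reduced libraries (log2 difference 0.66, limma adjusted p = 0.337). The X-linked Rps4x had 441, 328 and 471 FPKM in oxidized libraries, against 514, 536 and 517 FPKM in reduced libraries (log2 difference -0.35, limma adjusted p = 0.330), so the pair lay on opposite sides of 0.

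In 44 of the 83 genes oxidized A and B lay together outside the range of the other 4 libraries. A and B are treated as a pair here because the ribosomal RNA locus and the mitochondrial mRNAs set them apart from the other 4 libraries. In 24 genes, 28.9%, both were above the other 4 libraries, where 22.0% of all genes were. In 20, 24.1%, both were below, where 8.27% of all genes were. Both subunits took part: 14 of 52 large subunit genes were above and 14 below, and 10 of 31 small subunit genes were above and 6 below. The median distance from the mean of the reduced libraries, without sign, was 0.43 for the mean of oxidized A and B and 0.11 for oxidized C. Over all genes these distances were 0.27 and 0.24.

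The differences were also taken within each population, where the oxidized and reduced cells share no library with another pair. Across the 83 genes the difference in population A correlated with that in population B at r = 0.84 (Spearman's rho 0.88), with that in population C at r = -0.18, and the difference in B with that in C at r = -0.15. Over all 12191 genes these values were 0.51, 0.22 and 0.26. They are descriptions across genes of the same libraries, and genes are not independent replicates. In population A 60 of 83 genes were higher in the oxidized library, in B 41 and in C 3 (Rpl14, Rpl21 and Rpl39l), and the median differences were 0.28, -0.03 and -0.20, where those of all genes were 0.09, 0.14 and 0.00. Of all 12191 genes, 7092, 7352 and 6098 were higher in the oxidized library of A, B and C. In 0 of the 83 genes was the oxidized library higher in all 3 populations, and in 20 it was lower in all 3. Over all 12191 genes these counts were 3277 and 2000. The sign was thus the same in all 3 populations in 24.1% of the 83 genes, where it was in 43.3% of all genes.

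**Figure D4:**
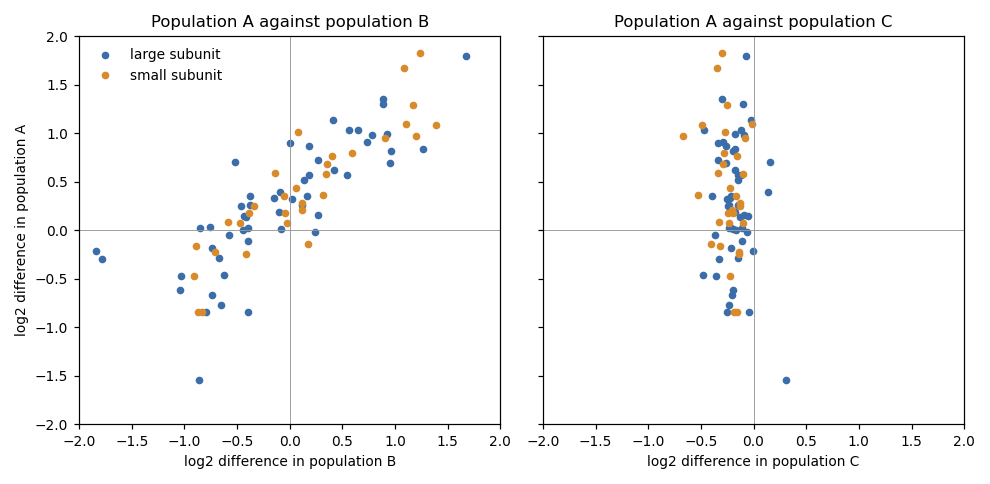
Log2 difference of each of the 83 tested ribosomal protein genes between the oxidized and the reduced library of population A, plotted against the same difference in population B (left) and population C (right), large subunit in blue and small subunit in orange. The points lie along a rising line for A and B (r = 0.84), and for A and C in a narrow band with 80 of 83 genes below 0 in population C.

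The calls depended on oxidized C. With that library left out, limma called 20 of the 83 genes, 12 higher and 8 lower in oxidized cells, where 9.72% of all genes were called, 7.25% higher and 2.47% lower. The higher ones, named here after their values were seen, were Rpl36 (log2 difference 1.56, adjusted p = 0.00510), Rps27 (1.41, adjusted p = 0.00534), Rps21, Rps4l, Rpl23a, Rps29, Rps2, Rpl32, Rps12, Rpl13, Rpl32l and Rpl12. The lower ones included Rpl8 (-0.89), Rpl6 (-0.85), Rpl6l, Rpl3, Rplp0 and Rps6. They fell in both subunits, 6 large and 6 small subunit genes among the higher and 5 large and 3 small among the lower. With oxidized A and B left out together, 0 of the 83 were called, where 0.0328% of all genes were, in a fit where the lone oxidized library is assumed to vary like the reduced ones. With the population as a block, 0 of the 83 were called, where 0.0328% of all genes were.

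What else set the genes on the 2 sides apart was looked for in their length and composition. Without the processed pseudogenes, which have no coding length, 14 genes had a difference above 0.5 and 11 one below -0.5. Their median coding lengths were 385.5 nt and 642 nt. Of 11 genes with a coding length of up to 300 nt, 9 had a positive difference (median 0.08), and of 22 genes over 600 nt, 7 did (median -0.16). Between them, 15 of 28 genes of up to 450 nt (median 0.08) and 11 of 19 of up to 600 nt (median 0.04) were positive. The medians thus differed little up to 600 nt. Rps2, at 879 nt, was among the higher genes all the same, and Rpl39l, at 153 nt, among the lower. Across the 80 genes with a coding length, Spearman's rho of length with the difference was -0.30, where it was -0.05 over all 10667 genes with one. For the GC content of the transcript rho was 0.33 over 83 genes, where it was 0.23 over 12184 genes. These are descriptions over genes that share the same 6 libraries. Neither the share of common stretches (rho 0.00) nor the mean level (rho 0.04) went along with the difference. The 7 tested genes that share less than 20% of their stretches had a median difference of -0.46, with Rpl39l, Rpl8, Rps15a and Rpl22 among those below 0 and Rps3 (0.34) and Rps20 (0.25) above it.

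**Figure D5:**
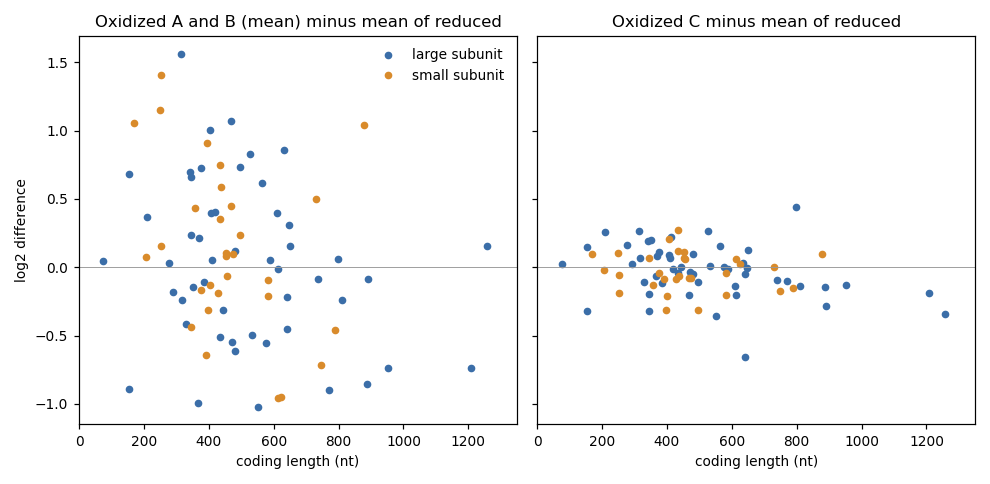
Log2 difference from the mean of the reduced libraries against coding length in nucleotides for the 80 tested ribosomal protein genes with a coding sequence, for the mean of oxidized A and B (left) and for oxidized C (right), large subunit in blue and small subunit in orange. On the left the points run from -1.02 in Rpl17 to 1.56 in Rpl36, and on the right they stay closer to 0. Spearman's rho with coding length is -0.28 on each side, and both sides use the same mean of the reduced libraries.

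The ribosomal protein genes that the naming rule leaves out also lay on both sides. Of these 5, 0 were called and the median difference was 0.16. In 1 (20%) the unadjusted p was under 0.05, where it was in 19.4% of all genes tested. Rpsa, a small subunit protein also known as the laminin receptor, had 512, 424 and 288 FPKM in oxidized libraries, against 280.2, 189 and 298 FPKM in reduced libraries (log2 difference 0.66, limma adjusted p = 0.218). Fau, a ubiquitin-like fusion with a small subunit protein, had 335, 249 and 533 FPKM in oxidized libraries, against 513, 389 and 605 FPKM in reduced libraries (log2 difference -0.48, limma adjusted p = 0.393). Oxidized A and B were above the other 4 libraries in Rpsa and below them in Fau.

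Other genes of translation and ribosome production were read from lists. Of 23 further transcripts with a pyrimidine start, mostly of elongation factors and initiation factor subunits, 0 were called and the median difference was 0.02. In 1 (4.35%) the unadjusted p was under 0.05, where it was in 19.4% of all genes tested. Eef1a1, the elongation factor that brings aminoacyl-tRNA to the ribosome and the most abundant of the list, averaged 1033 ± 234 in oxidized and 862 ± 19.1 FPKM in reduced cells, a log2 difference of 0.23. Pabpc1, the poly(A)-binding protein, had 64.8, 68.2 and 111 FPKM in oxidized libraries, against 122, 117 and 127 FPKM in reduced libraries (log2 difference -0.62, limma adjusted p = 0.180), with all oxidized libraries below all reduced ones. Of 22 initiation factors, 0 were called, 1 (4.55%) had an unadjusted p under 0.05 and the median difference was -0.12. Eif2s2, a subunit of the factor that delivers the initiator tRNA, had 21.0, 16.5 and 22.6 FPKM in oxidized libraries, against 26.9, 36.6 and 29.3 FPKM in reduced libraries (log2 difference -0.60, limma adjusted p = 0.144). Eif5a, the most abundant of them, averaged 681 ± 104 in oxidized and 752 ± 55.7 FPKM in reduced cells.

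Genes that build the ribosome had a lower median than those that encode its proteins. Of 50 ribosome assembly and nucleolar genes, 0 were called, the median difference was -0.22 and 15 were positive, where the median of all genes was 0.08. An unadjusted p under 0.05 was found in 9, 18.0%, all lower, where 19.4% of all genes had one and 5.93% had one and were lower. In 20 of the 50, 40.0%, all oxidized libraries were below all reduced ones, where 8.81% of all genes were. Utp14a, a component of the complex that first processes the ribosomal RNA precursor, had 11.3, 11.5 and 10.5 FPKM in oxidized libraries, against 18.9, 24.0 and 17.9 FPKM in reduced libraries. Oxidized C lay with oxidized A and B in this gene. The log2 difference was -0.80 (SE 0.16) with a limma adjusted p of 0.0681, and 0.0475 after median-ratio scaling. Nhp2, a protein of the RNA-guided pseudouridine machinery and the most abundant of the list, averaged 252 ± 18.8 in oxidized and 292 ± 45.5 FPKM in reduced cells. RNA polymerase I, which transcribes the ribosomal RNA, and its factors had 0 of 15 genes called, 0 with an unadjusted p under 0.05, and a median difference of 0.02. Its subunit Polr1c averaged 51.0 ± 8.40 in oxidized and 56.9 ± 5.59 FPKM in reduced cells, and Taf1c, of the selectivity factor, 8.96 ± 2.68 and 5.88 ± 1.73 FPKM.

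Regulators of ribosome synthesis were not called either. In the list of mTORC1 and Myc genes, 0 of 18 were called and the median difference was -0.01. Of the 18, 4 (22.2%) had an unadjusted p under 0.05, close to the 19.4% of all genes tested. Myc, a transcription factor known to raise ribosome production, had 18.7, 15.7 and 7.59 FPKM in oxidized libraries, against 4.44, 2.95 and 5.22 FPKM in reduced libraries. Each oxidized library was above each reduced one, and oxidized C was the lowest of the oxidized. The log2 difference was 1.47 (SE 0.31) with a limma adjusted p of 0.0780. Eif4ebp1, the translation repressor that mTORC1 inactivates, averaged 281 ± 12.2 in oxidized and 282 ± 60.6 FPKM in reduced cells. Of 15 targets of p53, which free ribosomal proteins such as Rpl5 and Rpl11 can activate by binding Mdm2, 0 were called. Their median difference was -0.01, and 3 (20%) had an unadjusted p under 0.05, again close to the share of all genes. Btg2, an antiproliferative gene, averaged 24.7 ± 9.03 in oxidized and 11.3 ± 1.75 FPKM in reduced cells (log2 difference 1.00, limma adjusted p = 0.124), and Bax, an inducer of cell death, averaged 176 ± 10.7 in oxidized and 201 ± 33.1 FPKM in reduced cells. Rpl5 itself had 225, 162 and 167 FPKM in oxidized libraries, against 189, 224 and 198 FPKM in reduced libraries, a log2 difference of -0.15. Rpl11 had 131, 94.9 and 159 FPKM in oxidized libraries, against 135, 142 and 205 FPKM in reduced libraries. Its log2 difference was -0.33 (limma adjusted p = 0.469), and oxidized A and B were below the other 4 libraries.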

How the data were processed

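Poly(A) RNA was sequenced as stranded paired-end libraries, per the labels' protocols, in 3 oxidized and 3 reduced samples. The authors deposited an FPKM value for every gene in every library. Tools in the submitters' processing notes are HISAT2, StringTie, cutadapt, FastQC and edgeR, on mm10, with no versions. The table's fold is a ratio of group means, and its log2 column the log2 of that ratio, both computed by the authors. The deposited p-value and q-value come from the authors' own test, which the file headers do not name. The treatment of reads with several matches, and of strand, is not stated in these sources. The sample titles carry replicate numbers and the columns population letters, so a column is tied to its group and letter only.

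FPKM values are not counts. In genes with 1 transcript, 28.1% to 31.5% of low values fell within 0.05 of a whole step, so reads could not be recovered; if the commonest step is 1 fragment, the libraries held 11776060 to 17906059 fragments, and population C, the shallowest, carries more counting error in low genes.

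log2(FPKM + 1) was fitted with limma 3.58.1 in R 4.3.3 (group alone, eBayes with trend) on the 12191 genes whose mean reached 1 FPKM, with Benjamini-Hochberg adjustment over all of them, two-sided, at 0.05. This scale understates the change of low genes. The script was tested on simulated data. Libraries were paired by population, since the design text says that both groups were sorted from each; deviations from the group means correlated within a letter at r = -0.06 in A, 0.07 in B and 0.20 in C, and across letters at -0.17 to 0.13, so in A and B the data do not show the pairing. Alternatives were the population as a replicate block, 3 other scalings, no trend, other filters and pseudocounts, left-out libraries, genes with little shared sequence and sums with named pseudogenes.

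Gene positions, coding lengths and shared stretches come from GENCODE vM21 on GRCm38, with 1 transcript per gene, and promoters from RefSeq on GRCm38.p6. Proteins were assigned a bacterial counterpart from the unified nomenclature. The members and lists were chosen with earlier results of these data known. The genes named are the 8 with the smallest p in each direction, the 5 highest and 5 lowest in mean FPKM, paralogues with their parents, the stalk, the 5 most variable, the 3 with the most shared sequence, and from each list the most abundant and the one with the smallest p; some of these genes are not reported here.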

Additional observations from a re-analysis of the deposited data

How the results depend on the processing

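Over the alternatives run, the number of ribosomal protein genes called stayed at 0 except without oxidized C; over the single left-out libraries it ran from 0 to 20. With the population as a replicate block it was 0, and the block changed no other call of a member. Without the 3 processed pseudogenes, an alternative chosen after seeing the data, it was 0 and the median 0.04. Other scalings moved the median of all genes, 0.08, to -0.01 (median-ratio), -0.01 (quantile) and 0.04 (rescaled without mitochondrial and rRNA genes); that of the members moved with it, to -0.07, -0.03 and -0.01. Restricting the table to genes sharing less than 20% of their stretches left 7 members, with a median of -0.46, a sum ratio of 0.730 and a large minus small difference of -0.52, against -0.03 over all members; fewer genes were compared. Without oxidized A and B the sign turned in Rps27 (-0.056), Rps4l (-0.20), Rplp2 (-0.19), Fau (0.11) and Eef1a1 (-0.13). Genes near 0 turned more often, and the cause was not tested: Rps27l (-0.066 median-ratio, -0.049 quantile, -0.0079 rescaled, -0.19 without oxidized A and B, -0.10 to 0.15 over the single left-out libraries) and Eif4ebp1 (-0.086 median-ratio, -0.067 quantile, -0.028 rescaled, -0.17 to 0.14 over single libraries). Of the single genes' other values, 700 kept direction and side of the threshold and 25 passed it, most without oxidized C. The table gives no read counts, so no counting interval accompanies any value, and with 3 libraries a group and oxidized C apart from A and B the spread limits what can be called.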

Other observations

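Pseudogenes named after ribosomal proteins were read as a list of their own. Of 217 in the table, 119 had a mean of at least 1 FPKM, 0 of these were called and the median difference was 0.18, with 83 positive. An unadjusted p under 0.05 was found in 31, 26.1%, where 19.4% of all genes had one. In 17, 14.3%, all oxidized libraries were above all reduced ones and in 7, 5.88%, all were below, where 16.2% and 8.81% of all genes were. Their FPKM summed to 7153, 5400.2 and 6468 in oxidized libraries, against 6364, 5981 and 6974 in reduced libraries. Rps2-ps7 had the smallest p among them, with 2.75, 3.45 and 2.31 FPKM in oxidized libraries, against 1.11, 1.16 and 1.09 FPKM in reduced libraries (log2 difference 0.84, limma adjusted p = 0.0686). Rpl3-ps1, the most abundant, had 565, 451 and 788 FPKM in oxidized libraries, against 1028, 1042 and 915 FPKM in reduced libraries (log2 difference -0.76, limma adjusted p = 0.141), and it holds 84.6% of the stretches of Rpl3.

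A copy without such a name was listed at a level like that of the members. Gm8730, a processed pseudogene that holds 43.7% of the stretches of Rplp0, had 884, 715 and 1203 FPKM in oxidized libraries, against 1419.5, 1189 and 1437 FPKM in reduced libraries. Oxidized A and B were the lowest, as in Rplp0. This copy was picked for its level after it was seen.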
